A study of Mus musculus with 2 samples.

Results

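The genes described here are 10 members of the tumor necrosis factor (TNF) system, taken by symbol from the 32287 features of the deposited tables, in which each of the 10 occurred once. They are the ligands *Tnf*, *Tnfsf9* and *Tnfsf12*, the receptors *Tnfrsf1a*, *Tnfrsf1b* and *Tnfrsf12a*, the feedback inhibitors *Tnfaip3*, *Tnip3* and *Nfkbia*, and the TNF-induced secreted protein gene *Tnfaip6*. Their UMIs (unique molecular identifiers, 1 per captured mRNA molecule) were followed across 13 marker-gated cell classes of mouse hind limb muscle at 7 days after peroneal nerve crush (7 dpi). There were 2 droplet-based scRNA-Seq libraries and 1 library per condition, so the comparisons carry no test, no p-value and no replicate error.

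The IgG library came from mice injected intramuscularly with control goat anti-mouse IgG. The SPP1-nAb library came from mice injected with a neutralizing antibody against secreted phosphoprotein 1 (SPP1, osteopontin). Both groups were injured, and a dose of 2 μg in a volume of 10 μL was given at injury and again every 2 days. There was no library from uninjured or uninjected mice. The labels give the strain as C57BL/6J and mark both samples S100GFP-pos, a reporter that labels Schwann cells and some other cells. The animals were S100GFP-tg males aged 10 to 16 weeks, pooled within a library. The sources differ on the sort, since the labels name S100GFP-pos cells and the methods describe a sort of both GFP+ and GFP- cells. They also differ on the muscle, given as TA and GTN or as TA alone. The methods describe injection of TA only, so GTN muscle, if it was included, was not described as injected. Which sorted cells were loaded is not known here. Schwann cell-like clusters made up 523 of 21047 kept IgG cells and 542 of 22282 kept SPP1-nAb cells, so the libraries were mostly not Schwann cells, and the sort can set the shares of all classes.

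TNF family ligands are trimeric proteins, made as membrane proteins, and many are cut from the cell surface. They bind receptors that recruit TRAF adaptors and kinases and release the transcription factor NF-κB from its inhibitors. NF-κB then induces genes that end the signal, among them the IκBα gene *Nfkbia*, which holds NF-κB in the cytoplasm, and *Tnfaip3*, a ubiquitin-editing enzyme. In injured muscle, TNF is known as a product of infiltrating myeloid cells, and TWEAK, the product of *Tnfsf12*, acts on muscle progenitors through its receptor *Tnfrsf12a*.

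The kept cells held 80872110 UMIs in the IgG library and 106452485 in the SPP1-nAb library, with medians of 3613 and 4534 per cell. Levels are therefore given as CPM (a gene's UMIs scaled to the total UMIs of the class), with 95% Poisson intervals where useful, and ratios as the log2 of SPP1-nAb over IgG with exact 95% intervals. All intervals cover counting error only. Genes differ in length and capture, so levels were compared between classes and libraries and not between genes. Of 18 marker lists, 13 found a class, and 3 clusters with 574 and 424 cells stayed unnamed because of low depth or the leading genes of another class. The libraries shared 163 barcodes, 125 of them among kept cells of each.

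Mononuclear phagocytes (macrophages and monocytes) were 12327 IgG cells (58.6%) and 15563 SPP1-nAb cells (69.8%), and they held most UMIs of 8 of the 10 genes in both libraries. They held 91.4% of the *Tnf* UMIs in IgG and 84.1% in SPP1-nAb, and neutrophil-like cells held a further 5.02% and 13.3%. Neutrophil-like cells were 551 IgG cells (2.62%) and 1228 SPP1-nAb cells (5.51%), so their larger share of *Tnf* UMIs went with more such cells. *Tnfaip6* was the exception in both libraries, with 85.9% and 76.4% of its UMIs in mesenchymal-like cells. *Tnfrsf12a* was divided, with 43.2% and 53.8% in phagocytes and 29.7% and 25.8% in satellite cell or myoblast-like cells.

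**Figure D1:**
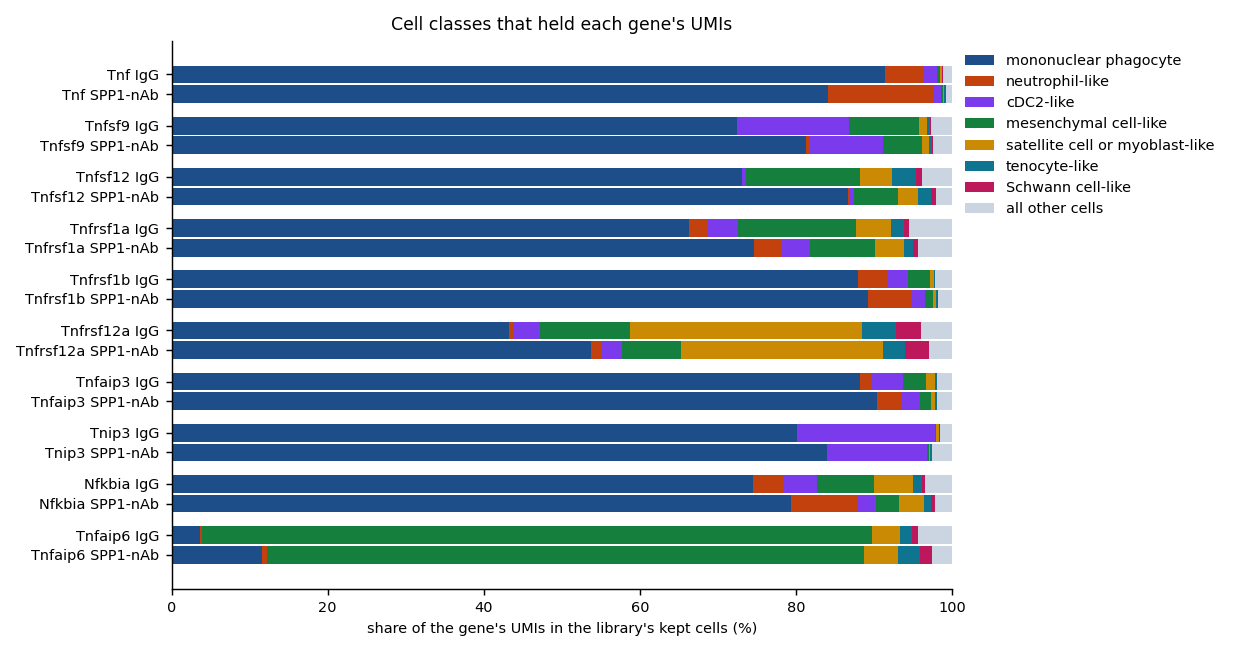
Share of each gene's UMIs (%) held by each cell class, with an IgG and an SPP1-nAb bar per gene; cells in all other classes are grey. Phagocytes (blue) filled most of the bar for every gene but *Tnfaip6*, which was mainly in mesenchymal-like cells (85.9% and 76.4%), and *Tnfrsf12a* in IgG, where they held 43.2%.

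By CPM the order of classes was different, because phagocytes were numerous and not always highest per UMI. Neutrophil-like cells had the highest CPM of *Tnf*, *Tnfrsf1a*, *Tnfrsf1b*, *Tnfaip3* and *Nfkbia*, cDC2-like cells of *Tnfsf9* and *Tnip3*, satellite cell or myoblast-like cells of *Tnfrsf12a*, and mesenchymal-like cells of *Tnfaip6*. Tenocyte-like cells were nominally highest for *Tnfsf12*. Neutrophil-like cells had medians of 1234 and 1380.5 UMIs, against 3852 and 4859 in phagocytes. A higher CPM in them thus need not mean more UMIs of a gene per cell. In both libraries they held more UMIs per cell than phagocytes for *Tnf* and *Nfkbia*, but fewer for *Tnfrsf1a*, *Tnfrsf1b* and *Tnfaip3*. For *Tnfaip3* in IgG, 551 neutrophil-like cells held 252 UMIs and 12327 phagocytes held 15108. For *Tnf* these cells held 695 and 12649 UMIs. The leading class was the same in both libraries for 10 of 10 genes. The classes came from clustering both libraries together, and the share of all genes that kept their leading class was not computed. For *Tnfsf12* the interval of the leading class overlapped that of the next class. Another class led in at least 1 library under 7 of 14 alternative settings, so no class was set apart for that ligand. The settings for the UMI minimum, the fold and the centring of ratios are among the 14 and could not change the order of classes.

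**Figure D2:**
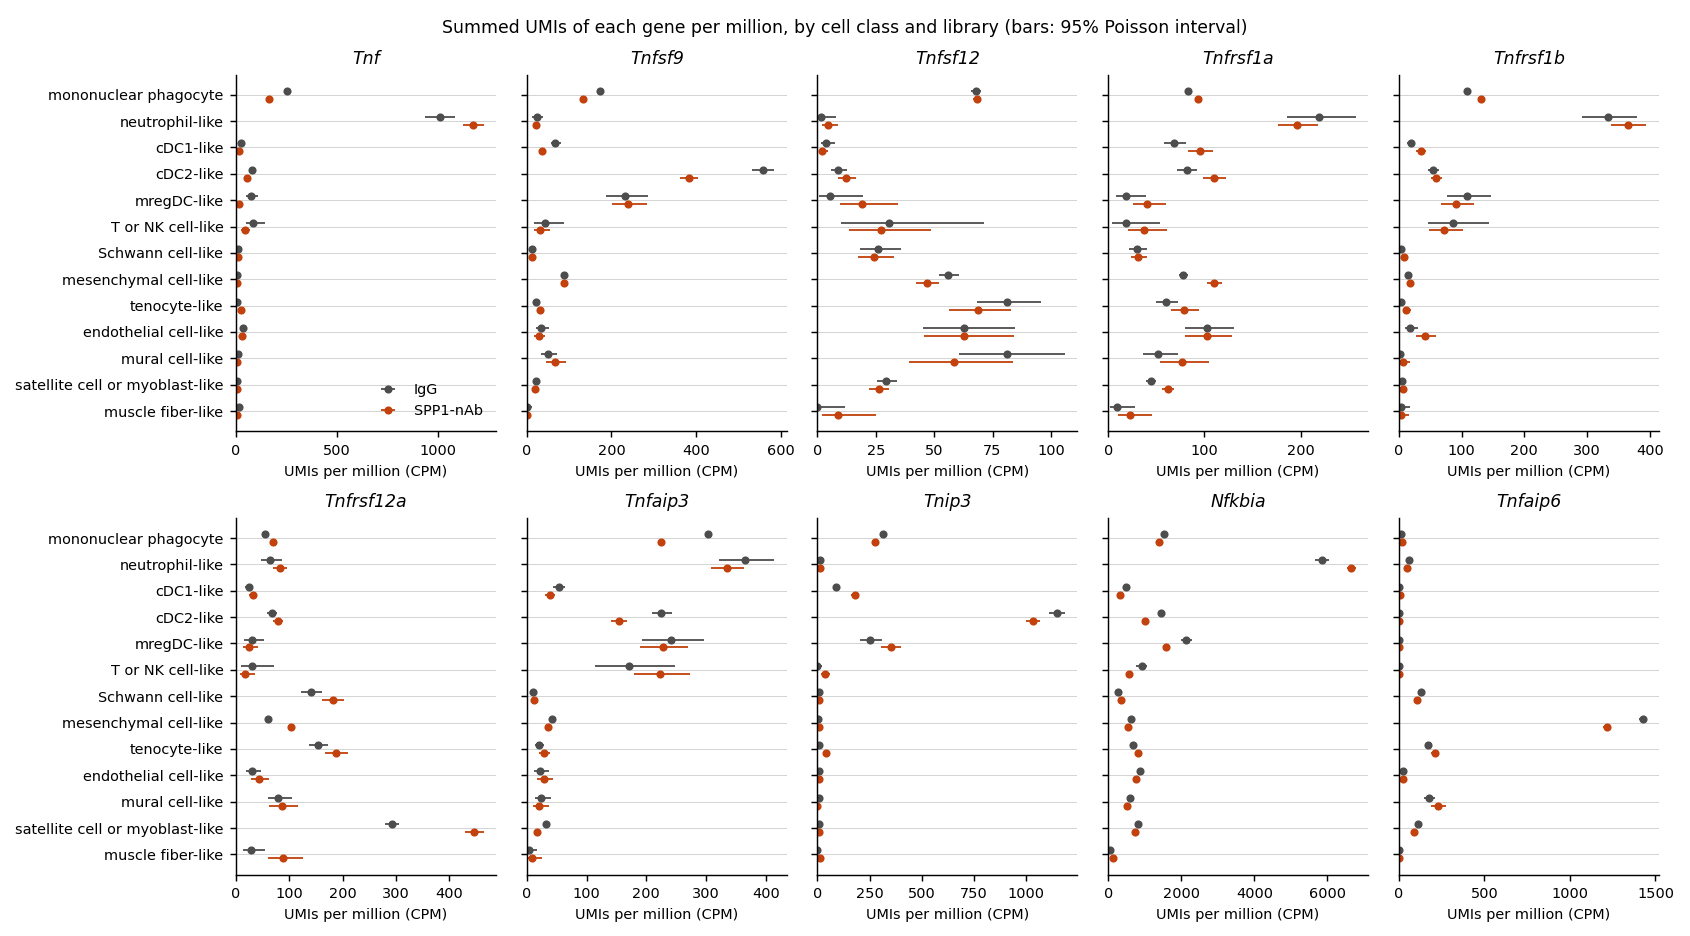
CPM of each gene (x axis from 0, 1 panel per gene) in 13 cell classes, for IgG (grey) and SPP1-nAb (orange), with 95% Poisson intervals. Neutrophil-like cells stand apart for *Tnf* (1009 and 1174 CPM), and mesenchymal-like cells for *Tnfaip6* (1425 and 1216 CPM).

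Among the ligands, *Tnf*, the founding cytokine of the family, was a myeloid transcript. Neutrophil-like cells had 1009 CPM (935 to 1087) in IgG against 1174 CPM (1124 to 1226) in SPP1-nAb, a log2 ratio of 0.22 (0.09 to 0.34). Phagocytes had 253 CPM (249 to 258) in IgG against 166 CPM (163 to 168) in SPP1-nAb, a log2 ratio of -0.61 (-0.65 to -0.58), or 1.53-fold lower. The intervals of the libraries did not overlap in either class, and the classes differed in direction. Below them were cDC2-like cells with 77.2 and 53.2 CPM (log2 ratio -0.54, -0.83 to -0.25) and T or NK cell-like cells with 85.7 and 42.0 CPM on 14 and 17 UMIs, whose intervals overlapped in each library.

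Shares of cells with a *Tnf* UMI gave the same order. After each cell was thinned to 2000 UMIs, which left out 1324 IgG and 1208 SPP1-nAb phagocytes that were shallower, one was found in 30.7% (29.9 to 31.6) of the remaining phagocytes in IgG against 22.5% (21.8 to 23.1) in SPP1-nAb. Unthinned cells, with a median of 3852 and 4859 UMIs, gave 43.0% and 36.6%. Mesenchymal-like cells, which were deeper at medians of 5092.5 and 8101, gave 0.669% and 0.992% after thinning, a level that free RNA in the droplets can give. Neutrophil-like cells were shallow, with medians of 1234 and 1380.5, so they were thinned to 1000 UMIs. *Tnf* was then found in 36.8% (32.3 to 41.5) of 443 cells in IgG against 42.7% (39.7 to 45.7) of 1101 in SPP1-nAb. These intervals overlapped. Because the depths differ, these shares do not rank neutrophil-like cells against phagocytes.

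*Tnfsf9*, the ligand of a costimulatory receptor of T cells, was highest in cDC2-like cells, conventional dendritic cells that present antigen to helper T cells. These had 557 CPM in IgG against 383 CPM in SPP1-nAb (log2 ratio -0.54, -0.65 to -0.43). In phagocytes it had 172 and 134 CPM (-0.37, -0.41 to -0.33), and in cDC1-like cells, the type that cross-presents antigen, 67.8 and 37.0 CPM (-0.87, -1.28 to -0.48). In mesenchymal-like cells the libraries were nearly equal, at 87.6 and 87.4 CPM with an interval of -0.15 to 0.14. The ligand was thus lower in SPP1-nAb in these antigen-presenting classes, and not distinguishable in mesenchymal-like or mregDC-like cells.

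*Tnfsf12* was spread over stromal and myeloid classes. Phagocytes had 67.9 CPM in IgG against 68.3 CPM in SPP1-nAb, with an interval of the log2 ratio of -0.05 to 0.07. Mesenchymal-like cells had 56.0 and 46.8 CPM (-0.26, -0.45 to -0.07). Tenocyte-like cells, the cells of tendon, had 81.1 and 68.7 CPM, with overlapping intervals. Among the 3 ligands this was the one whose phagocyte level was the same in both libraries within counting error.

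The receptors differed in the other direction. *Tnfrsf1a*, the broadly expressed TNF receptor with a death domain, was counted (at least 100 UMIs over both libraries) in 8 classes and was higher in SPP1-nAb in 6, each with an interval above 0. It had 83.1 and 93.2 CPM in phagocytes (0.17, 0.11 to 0.22), 78.0 and 110.0 CPM in mesenchymal-like cells (0.50, 0.36 to 0.63) and 44.0 and 61.8 CPM in satellite cell or myoblast-like cells (0.49, 0.26 to 0.72). The remaining classes, neutrophil-like and endothelial cell-like, had intervals that held 0.

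*Tnfrsf1b*, the TNF receptor found mainly on leukocytes and without a death domain, had 334 and 365 CPM in neutrophil-like cells, with an interval of the log2 ratio that held 0 (-0.09 to 0.35). In phagocytes it had 109 and 132 CPM (0.27, 0.22 to 0.32). In cDC1-like cells the values were 18.8 and 34.8 CPM (0.89, 0.32 to 1.47) on 40 and 80 UMIs. Markers of mregDC and neutrophils also differed in cDC1-like cells, as given below, and their part in this difference was not tested. This ratio was not followed through the alternative settings. *Tnfrsf1b* was higher in all 5 classes that were counted, in 2 of them with an interval above 0.

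*Tnfrsf12a*, the receptor of TWEAK and a gene known to rise in injured and denervated muscle, led in satellite cell or myoblast-like cells. These had 292 CPM (279 to 306) in IgG against 447 CPM (430.3 to 465) in SPP1-nAb, a log2 ratio of 0.61 (0.53 to 0.70). The same direction was seen in each of the 3 clusters of this class, with 309.6 and 467 CPM in the *Peg3* *Pde1c* *Pax7* cluster, 288 and 579.7 CPM in the *Nppc* *Gal* *Chodl* cluster and 183 and 243 CPM in the cycling cluster. At 2000 UMIs the share of cells with a *Tnfrsf12a* UMI was 42.3% (39.6 to 45.0) among 1350 cells in IgG against 55.1% (52.0 to 58.1) among 1075 in SPP1-nAb. Mesenchymal-like cells had 59.6 and 104 CPM (0.80, 0.65 to 0.95), Schwann cell-like cells 140.2 and 181 CPM (0.37, 0.11 to 0.63) and phagocytes 53.9 and 69.4 CPM (0.36, 0.30 to 0.43). The receptor was higher in SPP1-nAb in all 8 classes counted, in 5 of them with an interval above 0, and in 11 of 11 phagocyte clusters, in 6 of them with such an interval. Other markers also differed in the satellite cell or myoblast-like class. Its own 8 markers summed to 2220.2 and 1665 CPM with 0 at 0, the 5 muscle fiber markers to 75.9 and 289.5 CPM with 0 at 0, the 7 neutrophil markers to 6.78 and 31.9 CPM with 1 at 0 in each library, and the 5 erythroid markers to 124 and 18.2 CPM with 2 at 0. In mesenchymal-like cells the 7 own markers summed to 24230 and 20150 CPM and the 6 tenocyte markers to 506 and 709 CPM, with 0 at 0 in both lists. Their part in the *Tnfrsf12a* differences was not tested.

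The feedback inhibitors are known as NF-κB-induced genes, and the bases before their starts are shown for that reason. All 3 had a lower CPM in SPP1-nAb phagocytes, with log2 ratios between -0.43 and -0.16. A part of NF-κB in these differences was not tested. The median log2 ratio of all 12371 genes counted in phagocytes was -0.04, and the share of those genes that were lower was not computed. For *Tnip3* the share of phagocytes with a UMI went the other way, as given below. RefSeq windows of 250 bases upstream of the annotated start (GRCm38.p6, strand of the gene) existed for 8 of the 10 genes, 9 windows in all. Capitals mark matches to the NF-κB consensus of 10 bases, searched on both strands. Matches at the same position on both strands were counted once. The consensus was found in 3.9% of all 32851 windows of this length, and in windows of 3 genes here, which are the feedback genes *Tnfaip3*, *Tnip3* and *Nfkbia*. A match is a run of letters and not a measured binding site, and the *Tnf* window, shown for comparison, held no match to these letters. The windows are chr12:55492648-55492897 (minus strand) for *Nfkbia*, chr10:19015411-19015660 (minus strand) for *Tnfaip3*, chr6:65590148-65590397 (plus strand) for *Tnip3* and chr17:35202008-35202257 (minus strand) for *Tnf*.
Nfkbia: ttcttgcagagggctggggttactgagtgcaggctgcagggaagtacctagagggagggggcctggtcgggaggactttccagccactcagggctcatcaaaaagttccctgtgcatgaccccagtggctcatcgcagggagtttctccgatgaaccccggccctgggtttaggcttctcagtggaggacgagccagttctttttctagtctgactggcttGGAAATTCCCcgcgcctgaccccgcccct
Tnfaip3: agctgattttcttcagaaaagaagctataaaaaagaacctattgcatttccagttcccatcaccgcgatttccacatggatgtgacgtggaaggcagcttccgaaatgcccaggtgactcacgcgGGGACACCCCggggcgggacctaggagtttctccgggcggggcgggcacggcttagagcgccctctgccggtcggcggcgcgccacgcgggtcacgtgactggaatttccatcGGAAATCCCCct
Tnip3: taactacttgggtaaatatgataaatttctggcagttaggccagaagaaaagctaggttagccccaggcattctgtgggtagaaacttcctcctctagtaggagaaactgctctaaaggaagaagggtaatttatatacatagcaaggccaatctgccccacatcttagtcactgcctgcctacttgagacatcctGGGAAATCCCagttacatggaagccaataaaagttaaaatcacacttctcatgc
Tnf: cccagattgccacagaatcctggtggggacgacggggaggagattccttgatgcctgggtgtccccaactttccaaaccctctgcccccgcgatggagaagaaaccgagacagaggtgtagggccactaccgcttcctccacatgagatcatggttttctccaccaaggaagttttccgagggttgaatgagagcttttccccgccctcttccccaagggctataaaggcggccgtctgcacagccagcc
The match of *Nfkbia* began 29 bases before the start, that of *Tnip3* 54 bases before it, and those of *Tnfaip3* 125 and 12 bases before it. A further *Tnfaip3* window, at an alternative start, held none.

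*Nfkbia* was highest in neutrophil-like cells, with 5851 CPM (5672 to 6034) in IgG against 6650.0 CPM (6530.4 to 6771) in SPP1-nAb, a log2 ratio of 0.18 (0.13 to 0.24). Phagocytes had 1535 and 1378 CPM (-0.16, -0.17 to -0.14), cDC2-like cells 1453 and 1015 CPM (-0.52, -0.58 to -0.45), cDC1-like cells 491 and 328 CPM (-0.58, -0.72 to -0.45) and mregDC-like cells 2141 and 1591 CPM (-0.43, -0.57 to -0.29). It was counted in 12 classes, with an interval below 0 in 9 and above 0 in 3, the latter being neutrophil-like, Schwann cell-like and tenocyte-like cells. Among dendritic cell classes the lower level was thus present in each of cDC1-like, cDC2-like and mregDC-like cells. Other markers also differed in cDC2-like cells. The 5 plasmacytoid dendritic cell markers summed to 172.8 and 294.7 CPM, with 0 at 0. The 5 erythroid markers summed to 17.1 and 360.3 CPM, with 2 and 1 at 0, and the 7 neutrophil markers to 9.56 and 54.4 CPM, with 1 at 0 in each library. The class's own 5 markers summed to 2516 and 2358 CPM. Their part in the differences of this class was not tested.

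*Tnfaip3* had 303 CPM in IgG against 224 CPM in SPP1-nAb phagocytes (-0.43, -0.46 to -0.40), 225 and 154 CPM in cDC2-like cells (-0.55, -0.72 to -0.38) and 31.9 and 16.8 CPM in satellite cell or myoblast-like cells (-0.92, -1.28 to -0.57). In neutrophil-like cells it had 366 and 335 CPM, with overlapping intervals. Of 8 classes counted, 7 were lower in SPP1-nAb, 5 of them with an interval below 0. T or NK cell-like cells were the exception, with 171 and 222 CPM and an interval of -0.25 to 1.04.

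*Tnip3*, which encodes a protein that binds the *Tnfaip3* product and restrains NF-κB, was largely limited to antigen-presenting cells. It had 1149.6 and 1034 CPM in cDC2-like cells (-0.15, -0.22 to -0.08), 317 and 276 CPM in phagocytes (-0.20, -0.23 to -0.17) and only 13.1 CPM in IgG neutrophil-like cells. In cDC1-like cells the order was the opposite, with 88.0 CPM in IgG against 179 CPM in SPP1-nAb (1.02, 0.77 to 1.28), as in mregDC-like cells with 254 and 351 CPM (0.47, 0.11 to 0.84). With 20% of cells removed as doublets the log2 ratio in cDC1-like cells was 0.50. In the same class the 6 mregDC markers summed to 43.8 and 107 CPM, with 1 at 0 in each library, the 7 neutrophil markers to 18.4 and 58.8 CPM, with 3 at 0, the 5 erythroid markers to 130.4 and 12.6 CPM, with 3 at 0, and the class's own 5 markers to 1767 and 1454 CPM. Their part in the *Tnip3* difference was not tested. The share of phagocytes with a *Tnip3* UMI at 2000 UMIs was 23.0% and 25.7%, opposite to its CPM. The measures thus disagreed on the direction of *Tnip3* in phagocytes.

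*Tnfaip6*, whose product binds hyaluronan and is secreted by stromal cells in inflammation, had 1425 CPM (1404 to 1447) in IgG against 1216 CPM (1191.5 to 1242) in SPP1-nAb mesenchymal-like cells, a log2 ratio of -0.23 (-0.27 to -0.19). Over all kept cells the values were 248 and 112 CPM, a log2 ratio of -1.14. The larger difference over all cells went with the share of mesenchymal-like cells, which made up 10.4% of kept IgG cells but 4.14% of kept SPP1-nAb cells. In such sums fewer cells of a type and less RNA per cell cannot be told apart, and the values within the class are those to read. Within the class, the cluster led by *Pi16*, *Clec3b* and *Gfpt2* had 2799.8 and 2820.5 CPM (0.01, -0.05 to 0.07) and the cluster led by *Cxcl14*, *Bgn* and *Postn* had 1089 and 968 CPM (-0.17, -0.22 to -0.12). The smaller clusters led by *Sdk1* and by *Smoc2* had 2836 and 1691 CPM (-0.75) on 62 and 56 cells, and 517 and 244 CPM (-1.08) on 201 and 12 cells. The *Pi16* cluster had 479 of 2182 IgG and 113 of 922 SPP1-nAb mesenchymal-like cells. With clusters weighted as in IgG the log2 ratio in the class was -0.12, against -0.23 as it stood.

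**Figure D3:**
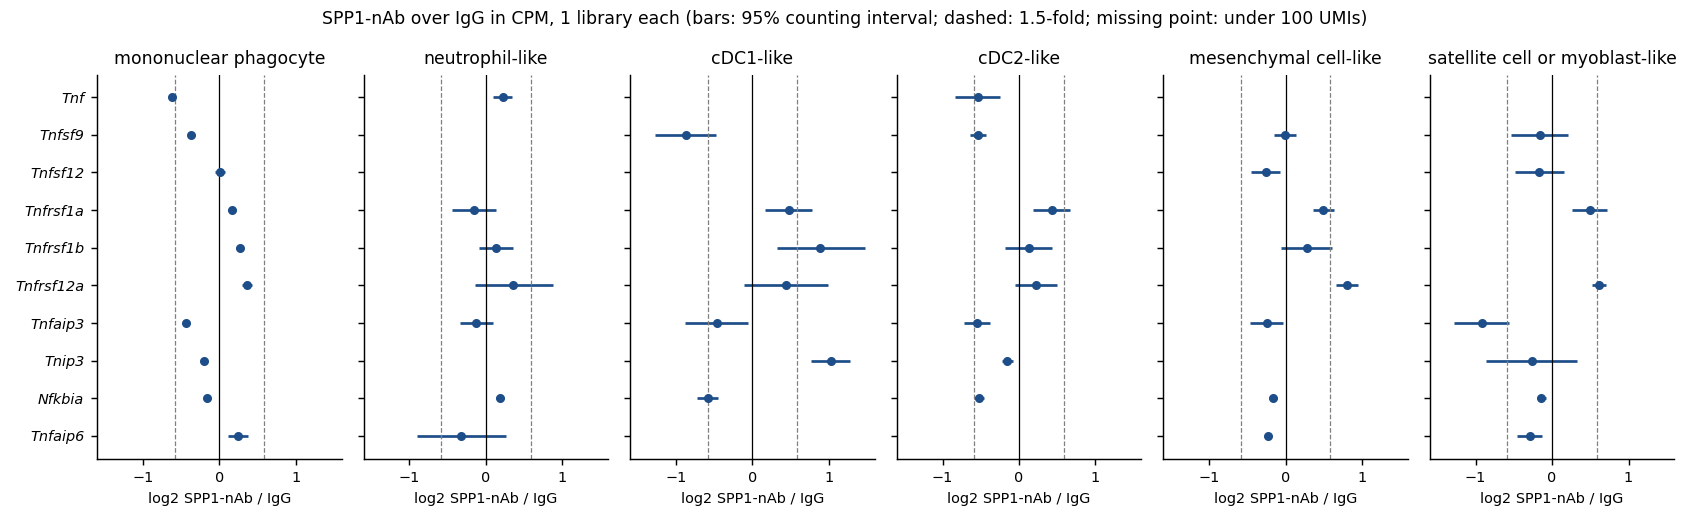
Log2 of SPP1-nAb over IgG in CPM for each gene (rows) in 6 cell classes (panels), with 95% counting intervals; dashed lines mark 1.5-fold, and genes under 100 UMIs in a class have no point. *Tnf* lies at -0.61 in phagocytes and 0.22 in neutrophil-like cells, while *Tnfrsf12a* lies to the right of 0 in every panel, between 0.23 and 0.80.

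A fold of 1.5 in either direction was used to count differences. In phagocytes 1 of 10 genes passed it (*Tnf*, lower), beside 11.1% of all 12371 genes counted there, of which 314 were higher and 1056 lower. In neutrophil-like cells 0 of 7 genes passed it, beside 10.0%, and in cDC2-like cells 0 of 8, beside 6.85%. In mesenchymal-like cells 1 of 8 passed (*Tnfrsf12a*, higher), beside 11.9%, and in satellite cell or myoblast-like cells 2 of 8 (*Tnfrsf12a* higher, *Tnfaip3* lower), beside 10.0%. In cDC1-like cells 3 of 7 passed (*Tnfrsf1b* and *Tnip3* higher, *Tnfsf9* lower), beside 5.68%, on 80 to 411 UMIs of these genes in SPP1-nAb. The counts in cDC1-like, cDC2-like and satellite cell or myoblast-like cells were not followed through the alternative settings. With 20% of cells removed as doublets the log2 ratio of *Tnip3* in cDC1-like cells was 0.50, which is short of 1.5-fold. The counts in phagocytes and mesenchymal-like cells were near the background of their class. The median log2 ratio of all genes was -0.04 in phagocytes, 0.04 in neutrophil-like cells and -0.03 in mesenchymal-like cells. *Tnf* lay just past the fold in phagocytes at 1.53, and *Tnfaip3*, the next, was short of it at 1.35-fold lower. The phagocyte count became 0 with 20% of cells removed as doublets, at clustering resolution 0.5, with ratios centred on the median gene or with clusters weighted as in IgG. The share of all genes past the fold was not computed in those settings. The log2 ratio of *Tnf* in phagocytes stayed between -0.63 and -0.37 in all settings.

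The phagocytes were not uniform, and the lower level of *Tnf* was not shared by all of their 11 clusters. It was lower in SPP1-nAb in 8 clusters, each with an interval below 0. The cluster led by *Ms4a7*, *Gdf15* and *Acp5* had 284 CPM in IgG against 87.3 CPM in SPP1-nAb (-1.70, -1.86 to -1.54). The cluster led by *Mmp12*, *Retnla* and *Ear2* had 255 and 78.8 CPM (-1.70, -1.91 to -1.49). Its phagocyte marker score of 0.157 was just over the minimum of 0.15 for naming a cluster. The *Retnla* *Ccl24* cluster, which was shallow at a median of 1631 UMIs, had 274 and 106 CPM (-1.37), and the cluster led by *Fabp5* and *Gpnmb* had 167 and 78.4 CPM (-1.09).

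The other clusters with less *Tnf* in SPP1-nAb differed by less. The *Gm9733* *Hp* cluster, which also had the monocyte genes *Ccr2* and *Plac8* among its leading genes, had 194 and 108 CPM (-0.84), the *Cxcl3* *Arg1* cluster 226 and 130.4 CPM (-0.79), the *Rsad2* *Ly6c2* cluster 190.4 and 133 CPM (-0.52) and the cycling cluster 226 and 159.7 CPM (-0.50). The remaining 3 clusters were not lower. The *Fcrls* *Gpr34* cluster, the highest for *Tnf*, had 384 CPM (373 to 396) and 401 CPM (389 to 413), a log2 ratio of 0.06 with an interval that held 0 and reached 0.12. The *Lyve1* *Cd209f* cluster, with genes of resident macrophages, had 245 and 297 CPM (0.28, 0.17 to 0.38), and the *Ifit2* *Ddx60* cluster had 270.4 and 299.8 CPM (0.15, -0.04 to 0.34).

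Cluster sizes also differed. The *Cxcl3* *Arg1* cluster held 1166 IgG and 2419 SPP1-nAb cells and the *Fabp5* *Gpnmb* cluster 1137 and 2159, while the *Fcrls* *Gpr34* cluster held 3116 and 2646. With the SPP1-nAb clusters weighted as in IgG, *Tnf* in phagocytes would have been 196 CPM, a log2 ratio of -0.37 in place of -0.61. The same weighting gave -0.35 in place of -0.43 for *Tnfaip3* and -0.23 in place of -0.37 for *Tnfsf9*, and left *Nfkbia* at -0.16 and *Tnip3* at -0.21.

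The feedback genes and *Tnfsf9* also differed in direction between clusters. *Tnfaip3* was lower in 9 of 11 clusters, each with an interval below 0, by most in the *Retnla* *Ccl24* cluster (527 and 254 CPM, -1.05) and the *Mmp12* *Retnla* cluster (355 and 172 CPM, -1.04). It was higher in the *Lyve1* cluster (242 and 275 CPM, 0.19) and the *Ifit2* cluster (315 and 426 CPM, 0.43). *Nfkbia* was lower in 9 clusters, 8 with an interval below 0, and higher in the same 2 (1164 and 1364 CPM in the *Lyve1* cluster, 1119 and 1292 CPM in the *Ifit2* cluster). *Tnfsf9* ranged from -1.24 in the *Ms4a7* *Gdf15* cluster (179 and 76.0 CPM) to 0.43 in the *Ifit2* cluster (106 and 143 CPM). *Tnip3* was highest in the *Mmp12* *Retnla* cluster, with 1423 and 929 CPM (-0.61), and was higher in SPP1-nAb in the *Rsad2* *Ly6c2* cluster, at 145 and 257 CPM (0.82), and in the *Lyve1* cluster, at 27.3 and 67.3 CPM (1.30). *Tnfrsf1a* and *Tnfrsf1b* were each higher in 10 of 11 clusters, 8 and 6 of them with an interval above 0.

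**Figure D4:**
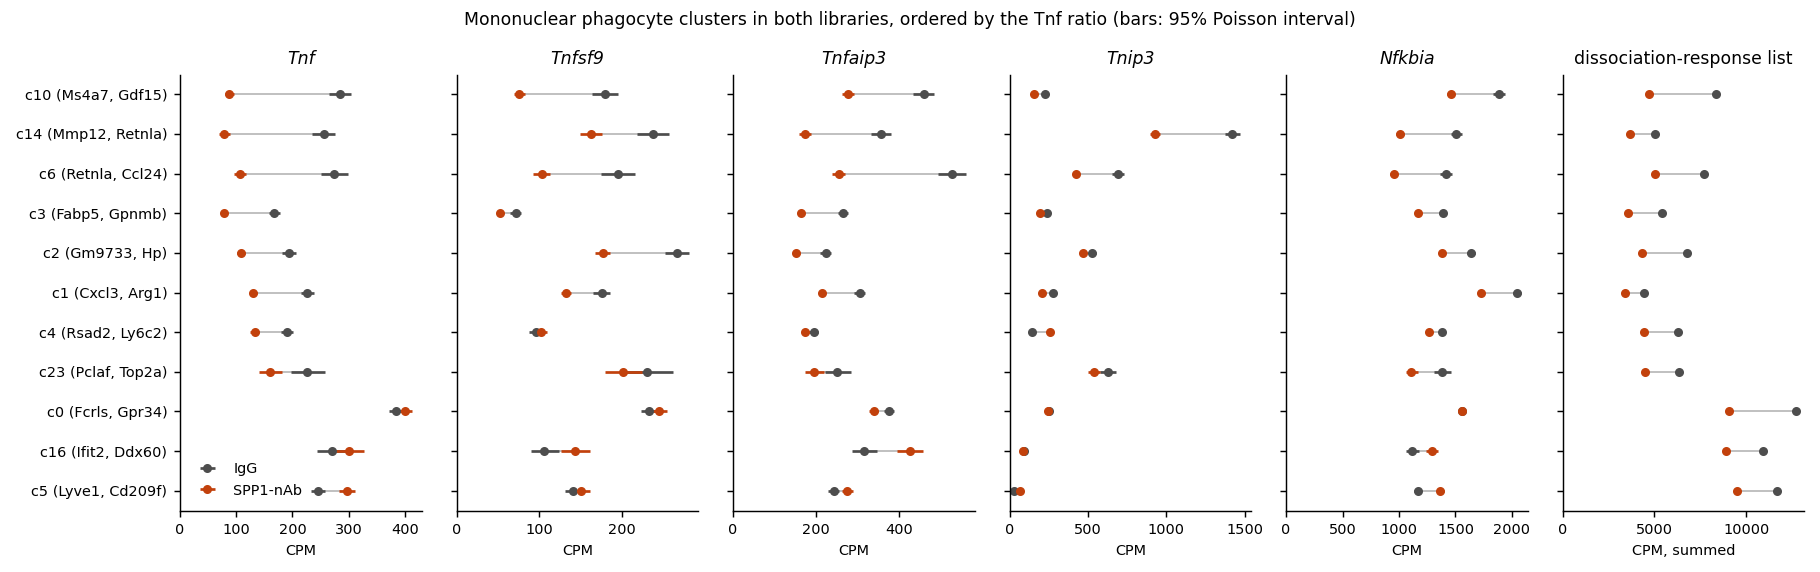
CPM of 5 genes in the 11 phagocyte clusters (rows, named by 2 leading genes and ordered by the *Tnf* ratio) in IgG (grey) and SPP1-nAb (orange), with 95% Poisson intervals; the last panel gives the summed CPM of 11 dissociation-response genes without intervals. *Tnf* is lower in SPP1-nAb in the upper 8 rows and not in the lower 3. The dissociation-response list is lower in all 11, with its largest log2 difference (-0.83) in the top row and its smallest (-0.30) in the 2 lowest rows.

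Other measures moved with the libraries. A list of 11 immediate-early and heat-shock genes known to respond to tissue dissociation, chosen after the data had been seen, summed to 8159 CPM in IgG against 5176 CPM in SPP1-nAb phagocytes, and 11 of 11 were lower. The list was lower in all 11 phagocyte clusters, with log2 ratios from -0.83 to -0.30. Its largest difference (-0.83) was in the *Ms4a7* *Gdf15* cluster, where *Tnf* was at -1.70, and its smallest (-0.30 each) in the *Lyve1* and *Ifit2* clusters, where *Tnf* was at 0.28 and 0.15. The *Gm9733* *Hp*, *Fabp5* *Gpnmb* and *Retnla* *Ccl24* clusters had -0.64, -0.60 and -0.62 for the list beside -0.84, -1.09 and -1.37 for *Tnf*. The *Mmp12* *Retnla* cluster had -0.47 beside -1.70, and the *Fcrls* *Gpr34* cluster -0.49 beside 0.06. The *Cxcl3* *Arg1*, *Rsad2* *Ly6c2* and cycling clusters had -0.37, -0.49 and -0.50 beside -0.79, -0.52 and -0.50. The list was also lower in neutrophil-like cells, at 9452 and 6994 CPM, where *Tnf* was higher, and in cDC2-like, mesenchymal-like and satellite cell or myoblast-like cells, at 5534 and 4272, 11799 and 9854, and 13652 and 8158 CPM. In Schwann cell-like and mural cell-like cells the list differed less, with a log2 ratio of -0.10 in each. The list was higher in SPP1-nAb in mregDC-like cells, at 2920 and 3247 CPM, and in muscle fiber-like cells, at 787 and 1067.5 CPM. Its part in the differences was not tested. Erythroid markers summed to 215 and 59.4 CPM in phagocytes, with 2 of 5 at 0 in each library, and neutrophil markers to 68.8 and 120.3 CPM, with 1 of 7 and 0 of 7 at 0, and their part was not tested either. Free RNA was estimated at 1.66% and 3.28% of phagocyte UMIs and at 3.93% and 8.82% of neutrophil UMIs, and after its subtraction the log2 ratio of *Tnf* was -0.62 in phagocytes and 0.29 in neutrophil-like cells.

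Cells with *Tnf* also held *Nfkbia*, *Tnfaip3* and *Tnfsf9* more often. Among phagocytes thinned to 2000 UMIs, *Nfkbia* was found in 87.9% (86.8 to 89.0) of 3381 IgG cells with a *Tnf* UMI and in 74.8% (73.8 to 75.7) of 7622 without. In SPP1-nAb the shares were 88.5% (87.4 to 89.6) of 3223 cells with and 8347 of 11132 cells without. *Tnfaip3* was found in 43.3% and 33.1% in IgG and in 40.9% and 26.5% in SPP1-nAb, and *Tnfsf9* in 28.5% and 16.8% and in 28.0% and 13.8%. *Tnfsf12* did not differ, at 12.2% and 12.2% in IgG and 12.3% and 12.2% in SPP1-nAb, nor did *Tnfrsf1a*, at 15.6% and 15.6% and at 17.1% and 18.2%, within their intervals. *Tnfrsf12a* was found in 11.9% and 9.16% in IgG, with intervals apart, and in 14.2% and 12.6% in SPP1-nAb, with intervals that overlapped. *Tnfrsf1b* gave 17.2% and 18.2% in IgG and 23.0% and 21.6% in SPP1-nAb, with overlapping intervals in each. *Tnfaip6* was rare, at 1.80% and 2.06% in IgG, and at 1.74% and 2.77% in SPP1-nAb, where the intervals were apart and the share was lower with *Tnf*. *Tnip3* gave 26.4% and 21.5% in IgG, with intervals apart, and 24.7% and 25.9% in SPP1-nAb, with intervals that overlapped.

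The same comparison was made within clusters for *Nfkbia*, *Tnfsf9*, *Tnfaip3* and *Tnip3* only. Other genes were not compared in this way, so the counts have no background beside them. Over 22 pairs of cluster and library, the share with *Nfkbia* was higher among cells with *Tnf* in 22, with *Tnfsf9* in 22, with *Tnfaip3* in 21 and with *Tnip3* in 17, and the intervals were apart in 15, 13, 12 and 6. The cells of a library are not replicates, so these are descriptions of 2 libraries. Among all phagocytes with a *Tnf* UMI, the share with *Nfkbia* differed little between IgG and SPP1-nAb (87.9% and 88.5%, intervals overlapping). Intervals also overlapped for *Tnfaip3* (43.3% and 40.9%), *Tnfsf9* (28.5% and 28.0%) and *Tnip3* (26.4% and 24.7%). Among phagocytes without a *Tnf* UMI, those of *Nfkbia* overlapped too. There *Tnfaip3* (33.1% and 26.5%) and *Tnfsf9* (16.8% and 13.8%) were lower in SPP1-nAb and *Tnip3* (21.5% and 25.9%) higher, with intervals apart. The share of phagocytes that had *Tnf* was lower in SPP1-nAb, and its part in these differences was not tested.

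**Figure D5:**
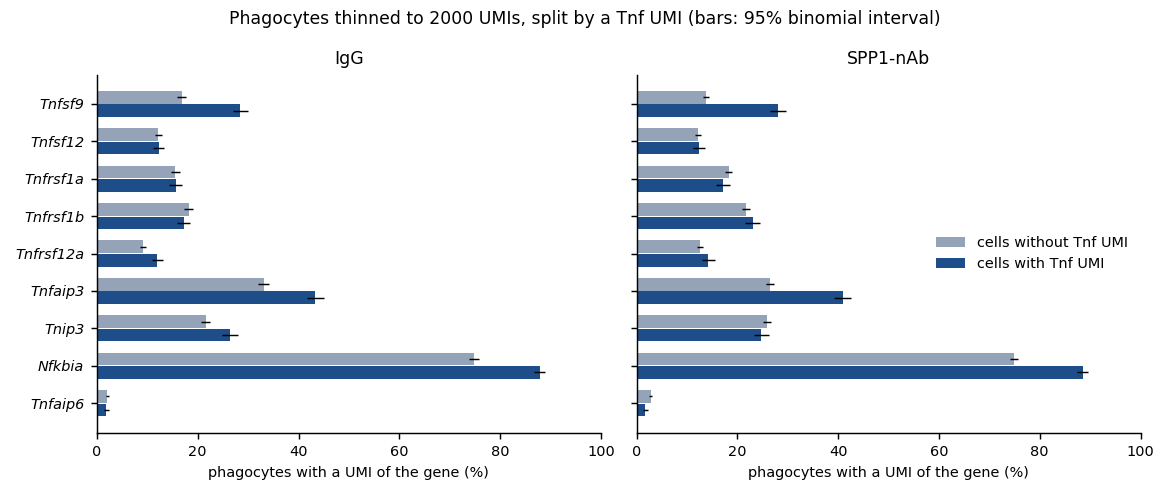
Share of phagocytes (%, x axis from 0 to 100) with a UMI of each gene, for cells with (blue) and without (grey) a *Tnf* UMI, in each library after thinning to 2000 UMIs, with 95% binomial intervals. *Nfkbia*, *Tnfaip3* and *Tnfsf9* are found more often with *Tnf* in both libraries (for *Nfkbia* 87.9% against 74.8% in IgG), and *Tnfsf12* is not.

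The wider pathway was described in phagocytes by 7 lists. Of 12 ligand genes with enough UMIs 1 was past 1.5-fold higher and 5 were past it lower, with a median log2 ratio of -0.44, beside -0.04 over all genes. Besides *Tnf*, those named by the rule were *Tnfsf14*, the LIGHT ligand, with 9.65 and 17.8 CPM (0.89, 0.74 to 1.04), *Tnfsf8*, the CD30 ligand, with 1.62 and 0.758 CPM (-1.10, -1.61 to -0.60), and *Tnfsf18*, the GITR ligand, with 75 and 65 UMIs (-0.87, -1.37 to -0.37). All 3 were scarce, with 60 to 1413 UMIs in SPP1-nAb. Of 18 receptors 1 was past the fold higher and 3 lower, among them *Tnfrsf26* with 2.06 and 3.90 CPM (0.92), *Tnfrsf17*, the BCMA receptor of plasma cells, with 6.97 and 3.12 CPM (-1.16), and *Tnfrsf25* with 1.16 and 0.682 CPM (-0.77).

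Of 20 adaptors and kinases 0, and of 5 NF-κB subunits 0, passed the fold, with median log2 ratios of -0.04 and 0.03. Of 5 genes of ligand release and scavenging, *Cd163*, a haptoglobin-hemoglobin receptor that also binds TWEAK, was lower with 212 and 106 CPM (interval of the log2 ratio -1.04 to -0.96). *Cd163* is also a leading gene of the *Lyve1* *Cd209f* cluster, which held 1386 of 12327 IgG and 1194 of 15563 SPP1-nAb phagocytes. The part of this cluster in the *Cd163* difference was not tested. Of 15 feedback inhibitors, *Nfkbiz*, an inducible nuclear IκB protein, was lower with 503 and 324 CPM (-0.63, -0.66 to -0.61). Of 17 NF-κB target genes 3 were lower, among them the gelatinase gene *Mmp9* with 9.27 and 5.05 CPM (-0.88), which is also a neutrophil marker, and the urokinase gene *Plau* with 87.2 and 53.2 CPM (-0.71). These lists were read beside the 11.1% of all genes past the fold, of which most were lower.

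In neutrophil-like cells, where 10.0% of all genes were past the fold, 0 of 3 ligands and 0 of 7 receptors passed the fold, while 2 of 7 adaptors and kinases, 1 of 5 NF-κB subunits and 1 of 13 feedback inhibitors were higher, and of 14 target genes 1 was higher and 2 lower. In mesenchymal-like cells, where 11.9% of all genes were past it, 4 of 17 target genes, 2 of 13 feedback inhibitors, 1 of 6 ligands, 1 of 7 receptors and 1 of 5 subunits were higher, and 1 of 3 genes of release and scavenging was lower. The median log2 ratio of the 7 receptors was 0.41 in mesenchymal-like cells, beside -0.03 over all genes.

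The genes whose levels were most like each member over 26 points (13 classes in 2 libraries, which share library and depth) were found among 11674 genes by Pearson's r of log2(CPM + 10). *Tnf* was closest to the chemokine gene *Ccl3* (0.96), then *Lcp2* (0.93) and *Lst1* (0.93), and *Tnfrsf1b* to *Slfn2* (0.94), *Lfng* (0.94) and *Ccl3* (0.93). *Tnfaip3* was closest to *Arrb2* (0.94), *Nfkbid* (0.93) and *Tnfrsf1b* (0.93), *Nfkbia* to *Litaf* (0.93), *Mcl1* (0.90) and *Bcl10* (0.88), and *Tnip3* to *Slamf9* (0.95), *Rassf4* (0.95) and *Cd74* (0.94). *Tnfsf9* was closest to *Taok3* (0.86), *Irf4* (0.85) and *Slamf9* (0.84), *Tnfsf12* to *Raph1* (0.90), *Myo1e* (0.88) and *Itga9* (0.86), and *Tnfrsf1a* to *Ifitm2* (0.87), *Pnp* (0.84) and *Ndel1* (0.84). *Tnfrsf12a* was closest to *Garem1* (0.88), *Ncam1* (0.87) and *Nradd* (0.85), and *Tnfaip6* to *Ccdc80* (0.96), *Col3a1* (0.94) and *Numbl* (0.94).

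On GRCm39 (GENCODE M39), all 10 identifiers matched a protein-coding gene of the same symbol. *Tnf* (ENSMUSG00000024401) lies on chromosome 17 from 35418357 to 35420983 on the minus strand, and *Tnfsf9* and *Tnfrsf12a* lie on the same chromosome at 57412298 to 57414769 and 23894416 to 23896468. *Nfkbia* lies on chromosome 12 (55535332 to 55539432, minus strand), *Tnfaip3* on chromosome 10 (18874201 to 18891405, minus strand), *Tnip3* on chromosome 6 (65502295 to 65611024, plus strand) and *Tnfaip6* on chromosome 2 (51927998 to 51946698, plus strand). *Tnfsf12* lies on chromosome 11 (69577076 to 69586928, minus strand), *Tnfrsf1a* on chromosome 6 (125325566 to 125339632, plus strand) and *Tnfrsf1b* on chromosome 4 (144938938 to 144973477, minus strand). The annotated genes that overlap a member (for *Tnfsf9*, *Tnfsf12*, *Tnfrsf1a*, *Tnfrsf12a* and *Nfkbia*, 1 each) lie on the opposite strand.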

How the data were processed

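Droplet-based scRNA-Seq counts of 2 libraries (IgG and SPP1-nAb, 1 each) were used as the authors deposited them, as whole UMI counts per gene and barcode from Cell Ranger, with no normalization. The submitters' processing notes name version 8.0.0 and the file headers 9.0.1. The deposited barcodes numbered 23779 (97607674 UMIs) for IgG and 25069 (127719916 UMIs) for SPP1-nAb.

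Barcodes were kept if they held over 200 genes and a mitochondrial share under 10%, and the 10% per library with the highest doublet score, the share of simulated doublets among near neighbours, were removed. Each cell was scaled to a total of 10000, followed by a log transform. From 2000 variable genes, leaving out *Spp1*, the 10 genes studied and the pathway genes, 30 principal components were integrated by a Harmony-type correction written for this work and clustered (Leiden, resolution 1) into 33 clusters. A cluster was named from marker lists when at least 3 markers were detected in 10% of its cells and its marker score reached 0.15. That minimum, and the rules that left 3 clusters unnamed, were chosen with the clusters in view. Raw UMIs were then summed per class and library. Genes with at least 100 UMIs over both libraries in a class were counted. Named pathway genes were the 2 per list and direction with the largest fold in phagocytes, past 1.5-fold. The genes, lists and markers were chosen with earlier results of these data known. Because each condition had 1 library, no test was made, and ratios have no replicate check. Intervals are exact Poisson or binomial at 95%. Alternatives covered doublets, cell filters, resolution, integration, gating, free RNA, centring, the UMI minimum, the fold and thinning. Scripts were tested on simulated data. Software was Python 3.11.15, NumPy 2.4.6, SciPy 1.17.1, pandas 2.3.3, scikit-learn 1.9.0, igraph 0.11.9, leidenalg 0.10.2 and Matplotlib 3.10.9.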

Additional observations from a re-analysis of the deposited data

Results flagged for a closer look

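Several genes differed in opposite directions in different cells of the same libraries. With 1 library per condition these differences between classes were not tested, and each is given as the log2 of SPP1-nAb over IgG. *Tnf* was at -0.61 in phagocytes and at 0.22 in neutrophil-like cells. Within phagocytes it was at -1.70 in the *Ms4a7* *Gdf15* cluster and at 0.28 in the *Lyve1* *Cd209f* cluster. *Tnip3* was at -0.20 in phagocytes and at 1.02 in cDC1-like cells, though the share of phagocytes with a *Tnip3* UMI was higher in SPP1-nAb. *Nfkbia* was at -0.70 in T or NK cell-like cells, which were only 50 and 83 cells, and at 0.37 in Schwann cell-like cells. *Tnfaip6* was at -0.30 in satellite cell or myoblast-like cells and at 0.28 in tenocyte-like cells.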

How the results depend on the processing

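No sign turned among the ratios followed through the alternatives, apart from *Tnfsf12* in phagocytes (0.01). That ratio changed sign in 3 of 14 and had an interval that held 0. The alternatives for the UMI minimum and the fold could not change any ratio. In phagocytes the count of genes past 1.5-fold went from 1 to 0 with 20% of cells removed as doublets, at resolution 0.5, with ratios centred on the median gene, at a fold of 2, and with clusters weighted as in IgG, a setting chosen after the data had been seen. In mesenchymal-like cells the count went from 1 to 2 with 20% removed as doublets (adding *Tnfrsf1a*), with less than 5% mitochondrial UMIs (adding *Tnf*), with single cells gated by markers and with at least 20 UMIs (both adding *Tnip3*), and to 0 at a fold of 2. In neutrophil-like cells it went from 0 to 1 (*Tnfrsf12a*) with single cells gated by markers. The share of all genes past the fold was computed in the main setting only, so the counts under the alternatives have no background beside them. Counts in the other classes were not followed through the alternatives. The share of phagocytes with a *Tnf* UMI differed by -8.28 percentage points at 2000 UMIs, by -5.26 at 1000 UMIs and by -6.47 without thinning. *Tnip3* in phagocytes was at -0.20, and between -0.22 and -0.09 over the alternatives. The causes of these shifts were not tested. No paired analysis was possible because each condition had 1 library. Leaving out the barcodes shared by both libraries changed none of these counts of genes past the fold. It did move the leading class of *Tnfsf12* in IgG from tenocyte-like to mural cell-like cells. Tenocyte-like cells still led in SPP1-nAb, so the libraries then no longer shared a leading class for this gene. The leading class of *Tnfsf12* also moved in other settings. Depth limits the small classes, where T or NK cell-like cells gave 14 and 17 *Tnf* UMIs.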
